A study of Mus musculus with 4 samples.

Results

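Cells that were in the division cycle in the uninflamed mouse joint were picked out of 1 single-cell library, and their identity genes and lineage reporter were compared with those of the other cells of that library. The cells were CD45+CD11b+Ly6G- mononuclear cells of the hind paw synovium, taken at steady state (day 0) from Cx3cr1creER:tdTomato mice. These mice carry a Cre recombinase that tamoxifen activates in cells expressing Cx3cr1, so that the tdTomato reporter is switched on in those cells and stays on in their descendants. Tamoxifen was given in 2 doses, and serum transfer in the other groups came 4 weeks after it. The day 0 mice had no arthritis, and the labels state neither when they were sampled after tamoxifen nor how many mice were pooled. Day 0 has 1 library, so no value below has a replicate, no test was made, and all intervals are 95% intervals of counting error only. For a count of 0, the limit given is 3 counts.

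A cell was a member when it had at least 3 unique molecular identifiers (UMIs, counted transcripts) summed over Stmn1, Top2a, Birc5, Ube2c, Mki67 and Cdk1, with at least 2 of these 6 genes detected. The cells considered had at least 500 genes and under 10% of UMIs from mitochondrial genes. There were 59 members among 3715 retained day 0 cells, a share of 1.59% (exact Clopper-Pearson interval 1.21 to 2.04%), and 14314 retained cells in the 4 libraries of the series. The other 3656 day 0 cells are called non-members. The members' depth was a median of 1095 UMIs (lowest 767, highest 2344) against 1056 in non-members, and their mitochondrial share was a median of 2.62% against 3.03%.

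Dividing cells copy their DNA in S phase, condense and sort their chromosomes in G2 and M phase, and return to G1. Most transcripts of the mitotic machinery are made only from late S phase to mitosis, and so they mark cells close to division. Tissue macrophages of the joint can renew themselves locally by such divisions, and several macrophage types share the synovium. Earlier work on the joint separates them by Sparc and Vsig4 (macrophages of the surface lining), by MHC class II genes such as H2-Aa, by Aqp1 and by Retnla.

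Many genes of G2 and M phase are switched on together by factors that bind 2 short promoter elements, the cell cycle genes homology region (CHR) and the CCAAT box. The promoters of 3 genes that mark the members are shown because they hold both. They come from RefSeq (GRCm38.p6), run from 250 bases before to 50 bases after the transcription start, and are written 5′ to 3′ on the gene's strand. Capitals mark every TTTGAA (the CHR core) and CCAAT on either strand, so that TTCAAA and ATTGG are capitals too.
Ube2c, chr2:164769679-164769978, plus strand: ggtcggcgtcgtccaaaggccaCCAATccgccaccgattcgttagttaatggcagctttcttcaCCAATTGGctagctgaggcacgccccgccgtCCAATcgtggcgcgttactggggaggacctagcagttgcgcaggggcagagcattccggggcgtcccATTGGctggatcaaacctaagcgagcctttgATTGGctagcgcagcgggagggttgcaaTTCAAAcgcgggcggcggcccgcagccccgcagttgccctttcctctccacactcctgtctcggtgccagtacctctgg
Cdk1, chr10:69352863-69353162, minus strand: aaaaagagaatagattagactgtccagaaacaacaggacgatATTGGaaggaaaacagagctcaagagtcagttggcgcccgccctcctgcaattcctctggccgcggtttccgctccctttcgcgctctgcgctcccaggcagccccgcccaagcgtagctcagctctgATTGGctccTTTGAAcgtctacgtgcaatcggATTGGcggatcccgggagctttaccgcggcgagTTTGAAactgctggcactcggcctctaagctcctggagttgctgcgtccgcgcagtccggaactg
Cdca8, chr4:124936868-124937167, minus strand: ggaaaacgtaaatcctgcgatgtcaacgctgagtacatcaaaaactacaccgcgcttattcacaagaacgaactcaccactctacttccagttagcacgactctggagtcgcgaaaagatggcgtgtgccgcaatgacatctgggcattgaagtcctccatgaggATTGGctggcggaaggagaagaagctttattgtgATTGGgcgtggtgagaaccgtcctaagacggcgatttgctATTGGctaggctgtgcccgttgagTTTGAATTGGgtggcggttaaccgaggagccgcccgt
Ube2c encodes the ubiquitin-conjugating enzyme that works with the anaphase-promoting complex to end mitosis, and its window held 1 CHR and 6 CCAAT matches, and a forward CCAAT overlaps a reverse one. The window of Cdk1, the kinase that starts mitosis, held 2 CHR and 3 CCAAT matches. In Cdca8, which encodes borealin of the chromosomal passenger complex, 1 CHR match overlaps the last of 4 CCAAT matches. The window of Birc5, which encodes survivin of the same complex, held 0 matches of either motif. Stmn1, which encodes the microtubule-destabilizing protein stathmin, is the other marker gene.

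Among all 32851 promoters of that table, 17.9% held the CHR core, 37.4% a CCAAT box and 6.95% both. Of 51 promoters matched to 46 of the 55 genes of a mitosis list, 72.5% held the CHR core, 84.3% a CCAAT box and 64.7% both. Of 31 promoters matched to 26 of the 35 genes of a DNA replication list, 12.9% held the CHR core, 61.3% a CCAAT box and 9.68% both. The mitosis list thus stood above all promoters for both motifs, and the replication list only for CCAAT. A match is a run of letters and does not show that a factor binds there.

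The 6 genes that chose the members gave 258 of the members' 71450 UMIs, with a lowest, median and highest sum per cell of 3, 4 and 15. Of the members, 25 had exactly 3 UMIs, 15 had 4, and 1 had 15 with the next highest at 8. Just outside the limit were 46 cells with 2 UMIs of 2 genes, 24 with 2 UMIs of 1 gene and 3 with at least 3 UMIs of 1 gene. A further 243 non-members had 1 UMI and 3340 had 0. Stmn1 carried the most members: 48 of 59 had a Stmn1 UMI, and 29 still passed with Stmn1 left out of the sum. Ube2c was found in 37 members, Birc5 in 33, Cdk1 in 22, Top2a (topoisomerase II alpha, which untangles replicated DNA) in 14 and Mki67 (the Ki-67 antigen) in 10. These values restate the choice. Of 3827 barcodes under the gene or mitochondrial limits, 16 passed the same gene limits and were not used.

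Levels are given in CPM, a gene's UMIs summed over a group's cells and scaled to 1000000 UMIs of that group. A single UMI in the members was worth 14.0 CPM, which limits what can be seen of weakly expressed genes. A gene counted as measured with at least 20 CPM in members or non-members, and it was called higher or lower when the ratio was at least 2-fold with an interval clear of 1. Of 5748 measured genes, 324 (5.64%) were higher and 60 (1.04%) lower in members. A gene measured only through the members had to be higher there, and 964 genes with 193 of the 324 higher calls were of that kind. Of the 4784 genes measured in non-members, 131 (2.74%) were higher. The median log2 ratio was 0.22 over all measured genes and 0.05 over those 4784. Cell cycle lists held 68 of the higher calls. The 6 genes come from the same cells, so the cycle lists below describe what was chosen, with those 6 genes left out.

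Mitosis genes set the members apart most. Their summed level was 5640 CPM (5103 to 6219) in members and 750 CPM in non-members, a ratio of 7.52 (6.76 to 8.34). Each of the 59 members had a mitosis UMI besides the 6 genes (lowest 1, median 7, highest 20), against 52.8% of non-members (median 1). Of the 55 genes, 44 were measured and 38 of them higher, against 5.64% of all measured genes, but most were measured only through the members. Of the 9 measured in non-members, 7 were higher, among them Cenpa, a centromere histone gene (7.79-fold), and Smc4, a condensin subunit gene (9.97-fold). The gene furthest above non-members was Ccnb1, a cyclin that activates Cdk1, at 210 CPM (15 UMIs in 13 members) against 2.81 CPM, a ratio of 74.8 (32.7 to 175). Of the other mitotic cyclin genes, Ccnb2 was 26.2-fold and Ccna2 34.2-fold higher. Pttg1, which encodes securin, the inhibitor of sister chromatid separation, did not pass, with 42.0 CPM in members and 94.0 in non-members (ratio 0.447, interval 0.0917 to 1.31).

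Several of the other named genes act at the spindle or at the kinetochore, which ties chromosomes to it. Nusap1, a spindle-binding protein, was 42.7-fold higher (20.5 to 87.0), and the kinetochore genes Cenpf and Spc25 were each 35.9-fold higher (13.9 to 87.6). Plk1, a mitotic kinase, rested on 6 UMIs in 4 members and was 71.8-fold higher (18.3 to 297). Cdc20, which activates the anaphase-promoting complex, was 25.4-fold higher, and Cdca8 22.4-fold higher (11.5 to 41.5), with UMIs in 12 members against 1.09% of non-members. The ranking also took in Cdca3 (29.9-fold), Cdkn3 (43.9-fold), a phosphatase acting on cyclin-dependent kinases, and Pbk (59.8-fold), a mitotic kinase. Lockd, a long noncoding RNA made next to the brake gene Cdkn1b, was 25.2-fold higher (8 UMIs). Hist1h2ap, a histone H2A gene, was 24.5-fold higher, but near-identical histone genes could share its reads. With Stmn1 left out of the choice Hist1h2ap was at 3.88 (0.0951 to 23.3), which ends the call. Lockd was at 7.75 (0.175 to 57.8) with cells thinned to 500 UMIs, which ends its call too.

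**Figure D1:**
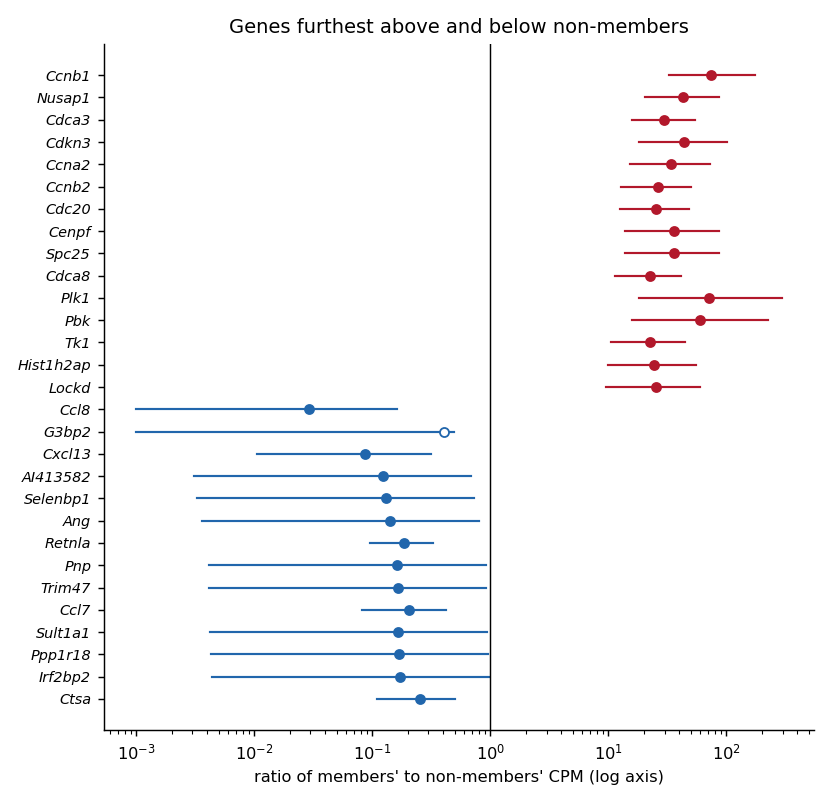
Ratio of members' to non-members' CPM (horizontal log axis) for the 15 named genes highest and 14 of those lowest in members at day 0, with the 6 genes that chose the members left out. Points are ratios, lines are 95% intervals of counting error drawn no lower than 0.001, and the open point (G3bp2) is a limit set at 3 counts. The higher genes lie between 22.4 and 74.8, and 9 of the 14 lower genes shown rest on 1 UMI in members.

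DNA replication genes were higher too, by less. The replication list was at 938 CPM (727 to 1191) against 331 CPM, a ratio of 2.83 (2.18 to 3.62), and 6 of its 16 measured genes were higher, against 5.64% of all measured genes. All but Pcna of these 6 were measured only through the members, and Pcna was the 1 higher of 4 measured in non-members. Among the 6 were Pcna, the sliding clamp of DNA polymerase (2.75-fold, 1.40 to 4.89), and the helicase genes Mcm5 and Mcm7 (10.9-fold and 10.3-fold). The others were Cdc45, also part of the replicative helicase (39.9-fold on 4 UMIs), the clamp loader subunit Rfc4 (9.07-fold) and Clspn (23.9-fold on 2 UMIs). Of the 35 genes, 13 were at 0 in members, among them Mcm2 and Cdc6. Nucleotide synthesis genes were at 672 CPM (495 to 891) against 234 CPM, a ratio of 2.87. There Tk1 (22.4-fold, 12 UMIs), Rrm2 (16.1-fold) and Tyms (7.25-fold), which make DNA precursors, were higher of 8 measured, all 3 through the members only.

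Single members most often carried both kinds of transcript. Of the 59, 43 had UMIs of replication or nucleotide genes as well as of mitosis genes, 16 had mitosis genes without them, and 0 had replication genes alone, which allows a share of up to 5.08%. Of the 3656 non-members, 705 had replication or nucleotide genes alone, and 44.4% had at least 1 UMI of those genes. Pcna (61.0 CPM) and Impdh2 (60.1 CPM) gave the most of them there. A single such UMI therefore does not place a non-member in S phase. The 6 genes of the choice are mostly genes of late S, G2 and M phase, so cells in early S phase with few of those transcripts would have stayed among the non-members, and how many did was not tested.

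Mitosis genes went up with the number of UMIs of the 6 genes on both sides of the limit. They were at 635 CPM in cells with 0 of those UMIs, 1582 CPM with 1 UMI, and 2871 and 2991 CPM with 2 UMIs of 1 or 2 genes. They reached 4612 CPM (3827 to 5510) in members with 3 UMIs and 6237 CPM (5530 to 7009) in members with 4 or more. The 3 non-members with at least 3 UMIs of 1 gene stood at 7748 CPM (5189 to 11127). Replication and nucleotide genes together were at 520 CPM with 0 UMIs, 1505 CPM with 2 UMIs of 2 genes, and 1791 and 1504 CPM in members with 3 and with 4 or more. Non-members with 1 or 2 UMIs of the 6 genes thus held mitosis transcripts too, at lower levels than members. The 3 non-members with at least 3 UMIs of 1 gene were not lower, with replication and nucleotide genes at 2672 CPM (1281 to 4913) on 10 UMIs.

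**Figure D2:**
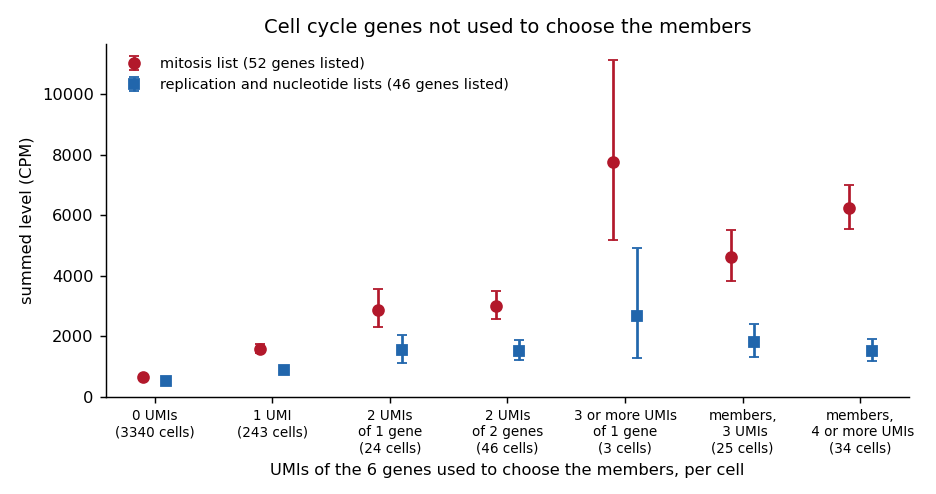
Summed CPM (vertical axis) of mitosis genes (circles) and of replication and nucleotide genes (squares), none of them used to choose the members, in day 0 cells grouped by their UMIs of the 6 genes that did. Bars are 95% intervals of counting error; mitosis genes go from 635 CPM in cells with 0 UMIs to 6237 CPM in members with 4 or more, while replication and nucleotide genes go from 520 to 1504 CPM.

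Chromatin and tubulin genes, which most cells express and dividing cells express more, were at 14304 against 5265 CPM (ratio 2.72, 2.55 to 2.89). Of 19 measured, 15 were higher against 5.64% of all measured genes, and of the 14 measured in non-members, 10. The histone variant gene H2afz was 2.98-fold higher and found in 49 members, Tubb5, a beta-tubulin, 4.32-fold higher in 53 members, and the chromatin protein gene Hmgb2 7.60-fold higher in 32. The G1 list of cyclins, kinases and brakes was at 2043 against 2151 CPM (ratio 0.950, 0.801 to 1.12), with 3 higher of 15 measured against 5.64% of all measured genes. The 3 were Ccne1 (2 UMIs, measured only through the members) and the Cdk4 and Cdk6 inhibitors Cdkn2c (2.55-fold, 1.15 to 4.94) and Cdkn2d (2.95-fold, 1.45 to 5.39).

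The members carried macrophage transcripts. Lyz2, the lysozyme gene of myeloid cells, was found in all 59 (lowest 1, median 15, highest 58 UMIs; non-members had a median of 22), and the complement genes C1qa, C1qb and C1qc were each found in 55. Free RNA gives such UMIs too: of 5 day 0 barcodes with at least 3 UMIs of 2 or more T and NK cell genes, 4 had Lyz2 (2660 CPM) and 1 had C1qa (333 CPM), while members had C1qa at 3695 CPM. All 5 barcodes chosen by fibroblast genes held both, with C1qa at 4836 CPM, so detection alone does not set members apart from those. The pan-macrophage list was nevertheless lower in members, at 30203 against 44381 CPM, a ratio of 0.681 (0.652 to 0.710). Adgre1, the F4/80 gene, was lower past 2-fold (98.0 against 211 CPM, ratio 0.463, 0.186 to 0.959). C1qa was at 0.641 (0.566 to 0.724), Lyz2 at 0.702 (0.660 to 0.745) and Csf1r, the receptor for the macrophage growth factor CSF1, at 0.685 (0.499 to 0.919).

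Other cell types left little trace. In members, the T and NK cell list was at 0 UMIs with all 5 listed genes at 0, and at 10.1 CPM in non-members. The neutrophil, fibroblast and endothelial lists had 1 UMI each in members. The B cell list had 5 UMIs, 4 of them of Ighm. Osteoclast-like genes were at 420 against 967 CPM (ratio 0.434, 0.293 to 0.621), with Acp5, Ctsk and Mmp9 lower. Of the 8 listed monocyte genes, 6 were at 0, Ly6c2, Plac8 and Chil3 among them. Non-members held these 3 genes at 6.31, 8.89 and 4.68 CPM, and the T and NK cell list was also under the 14.0 CPM of 1 UMI in members. A count of 0 at such levels does not set members apart. Ccr2, the chemokine receptor of monocytes and of monocyte-derived macrophages, was higher at 224 against 91.9 CPM (ratio 2.44, 1.38 to 4.01), with 16 UMIs in 13 members. The dendritic cell list was at 462 against 272 CPM (ratio 1.70, 1.16 to 2.40) with 0 of 3 measured genes called, Mgl2, a lectin gene that macrophages also express, at 364 against 195 CPM, and Flt3, Zbtb46 and Ccr7 at 0. Scrublet, which scores cells as likely doublets, called 0 of the 3715, so no cell could be removed by it. Any doublets remain, and 3 members were among the 5% of cells with the highest scores.

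TdTomato, the lineage reporter, was found in members at a lower level. They had 0 UMIs at the lowest and at the median and 6 at the highest, and non-members had 0, 1 and 17. The level was 616 CPM (447 to 827) against 882 CPM, a ratio of 0.698 (0.507 to 0.939). UMIs were found in 27 of 59 members (45.8%, 32.7 to 59.2%) and 56.3% of non-members, and with each cell thinned to 500 UMIs in 18.6% (9.69 to 30.9%) and 33.1%. Only 2 members had 3 or more UMIs, 3.39% against 10.9%. Pan-macrophage genes were lower by a similar factor (0.681), and per 1000 UMIs of the 12 genes of that list members had 20.4 TdTomato UMIs and non-members 19.9, a ratio of 1.03 (0.744 to 1.38). That scale was chosen after the values were seen. At these counts a cell with 0 TdTomato UMIs may still carry the reporter, so no share of labelled cells was read from them.

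Cx3cr1, whose promoter drives the Cre, gave 1 UMI in the 59 members and was found in 5.33% of non-members. As a measure of free RNA, the 5 day 0 barcodes with T and NK cell genes (median 1241 UMIs) had 0 TdTomato UMIs of 6014, where 3 counts would be 499 CPM. Such barcodes also had 0 Sparc and 0 Retnla UMIs, Aqp1 in 1 of 5 and Lyz2 at 2660 CPM. Stmn1 was found in 4 of these 5 at 1164 CPM (468 to 2398), against 1372 CPM in members, though 0 of the 5 were members. In 5 barcodes chosen likewise by fibroblast genes, TdTomato was at 484 CPM (99.7 to 1413), and these also held Lyz2 at 29502 CPM. In 197 barcodes chosen by osteoclast genes, 1 of them a member, it was at 682 CPM (581 to 796). These barcode groups were added after the data were seen.

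Sparc, an extracellular matrix protein gene of lining macrophages, was at 602 CPM (436 to 811) in members and 892 CPM in non-members, a ratio of 0.675 (0.487 to 0.911). Members had 0, 0 and 4 UMIs at the lowest, median and highest cell, and 28 of 59 had one. Per pan-macrophage UMI the ratio was 0.991 (0.716 to 1.34). The lining list as a whole was at 6606 against 7060 CPM (ratio 0.936, 0.853 to 1.02) with 0 of 8 measured genes past 2-fold in either direction. Within it Vsig4, a complement receptor, was at 924 against 1444 CPM (ratio 0.640, 0.494 to 0.815) and Cd9, a tetraspanin, at 2043 against 1446 CPM (ratio 1.41, 1.19 to 1.67), so its genes differed in both directions.

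Aqp1, a water channel gene, was at 1008 CPM (788 to 1269) in members and 797 CPM in non-members, a ratio of 1.26 whose interval (0.987 to 1.60) reaches 1. Per pan-macrophage UMI the ratio was 1.86 (1.45 to 2.35), a scale that divides every gene's ratio by the list's own 0.681. Against non-members at or above the members' median depth it was 1.34 (1.05 to 1.70). Members had 0, 1 and 6 UMIs at the lowest, median and highest. The thinned share of cells with a UMI was 45.8% (32.7 to 59.2%) against 31.8%. Fxyd2, a regulator of the sodium pump listed with Aqp1, was at 1484 against 1671 CPM (ratio 0.888, 0.726 to 1.08). Aqp1 and Fxyd2 together were at 2491 against 2468 CPM (ratio 1.01, 0.865 to 1.17).

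H2-Aa, an MHC class II chain that presents peptides to T cells, was at 3219 CPM (2816 to 3663) in members and 1971 CPM in non-members, a ratio of 1.63 (1.43 to 1.86). The members had 0, 2 and 21 UMIs at the lowest, median and highest cell, and non-members 0, 1 and 52. The class II list stood at 19132 against 11634 CPM (ratio 1.64, 1.56 to 1.74), with the 6 measured genes between 1.43 (H2-Ab1) and 1.93 (H2-DMb1) and 0 of them past 2-fold. The difference was uneven over cells: 21 of 59 members (35.6%) had 5 or more H2-Aa UMIs against 16.8% of non-members, while 22 members (37.3%) had 0 against 39.4%. Of the 5 barcodes with T and NK cell genes, 3 had an H2-Aa UMI (60.0%, 14.7 to 94.7%) at 499 CPM. Of the 5 barcodes with fibroblast genes, 4 had one, at 5481 CPM (3796 to 7659), above the members' level. The fibroblast barcodes also held Lyz2 at 29502 CPM, against 15157 CPM in members, so they do not measure free RNA alone. With 5 barcodes in each group, the share of members with at least 1 UMI (62.7%) cannot be set against free RNA. The members' level was above that of the barcodes with T and NK cell genes. Ccr2 and the dendritic cell list, which go with class II genes in monocyte-derived and dendritic cells, were also higher in members. Of that list's 33 UMIs in members, 26 were of Mgl2, which macrophages also express, and 0 of its 3 measured genes were called. The part of Ccr2 and of the list in the result was not tested.

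Retnla, a secreted protein gene of alternatively activated macrophages, was the lowest of the 4 subset genes relative to non-members. Members had 12 UMIs in 9 cells, at most 2 in a cell, for 168 CPM (86.8 to 293), and non-members were at 896 CPM with up to 45 UMIs in a cell. The ratio was 0.187 (0.0968 to 0.328), or 5.34-fold lower, and 0.275 (0.142 to 0.482) per pan-macrophage UMI. The 59 members included 0 with 3 or more Retnla UMIs, which allows a share of up to 5.08%, against 12.1% of non-members. The list of genes that go with Retnla was at 3065 against 5609 CPM (ratio 0.546, 0.476 to 0.624). Of its 9 measured genes 4 were lower, beside 1.04% of all genes: Retnla, the haemoglobin scavenger receptor Cd163 (112 against 241 CPM), the folate receptor Folr2 (406 against 825 CPM) and Gas6, a ligand for clearing dead cells (238 against 497 CPM). The other 5, Mrc1, F13a1, Lyve1, Cbr2 and Ccl24, had ratios from 0.565 to 0.768.

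**Figure D3:**
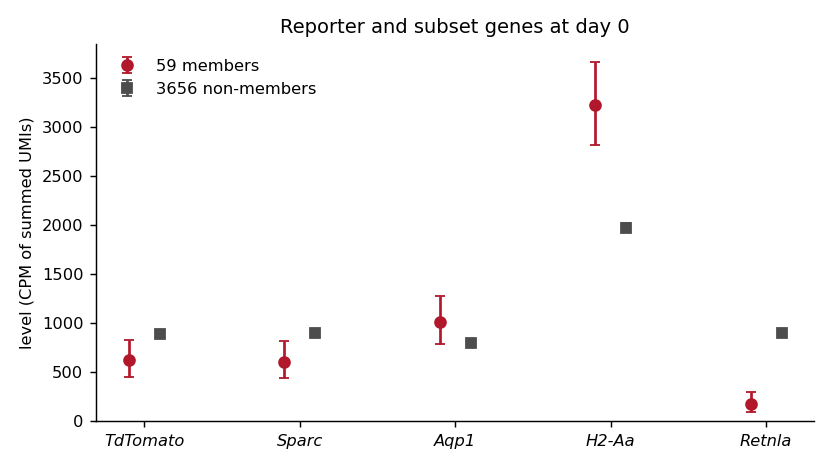
Level in CPM of summed UMIs (vertical axis) of the reporter TdTomato and 4 subset genes in 59 members (circles) and 3656 non-members (squares) of the day 0 library, with 95% intervals of counting error. Retnla is at 168 CPM in members and 896 CPM in non-members, H2-Aa at 3219 and 1971 CPM, and the interval of Aqp1 in members (788 to 1269 CPM) takes in the non-members' 797 CPM.

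**Figure D4:**
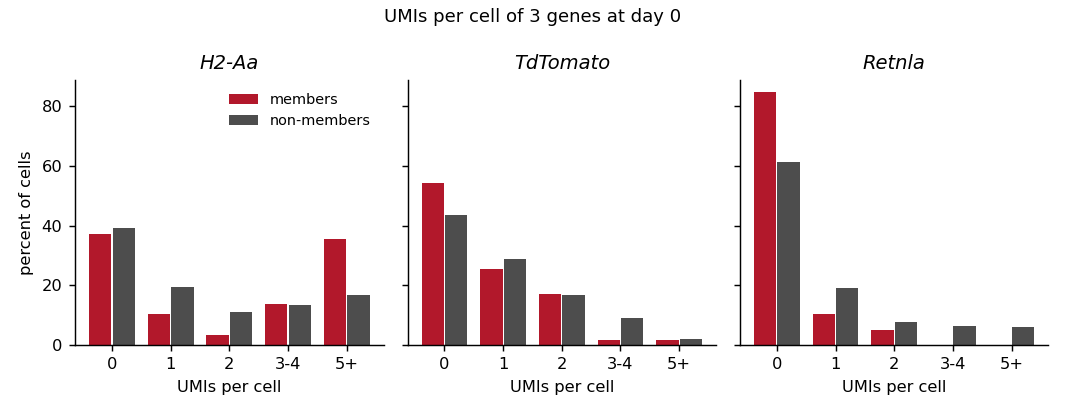
Percent of cells (vertical axis) by UMIs per cell of H2-Aa, TdTomato and Retnla in members (left bars) and non-members (right bars) at day 0. For H2-Aa 35.6% of members and 16.8% of non-members have 5 or more UMIs, and for Retnla 84.7% of members and 61.3% of non-members have 0.

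Day 0 cells were also ranked by the share of their UMIs in each marker list and cut into 3 groups of 1235 to 1242 cells, a step that needs no clustering and was added after the data were seen. Of the 59 members, 44 fell in the lowest group for the Retnla-like list, 9 in the middle and 6 in the highest. For the pan-macrophage list these numbers were 40, 14 and 5, and for the MHC class II list 18, 13 and 28. The lining list gave 17, 27 and 15 and the Aqp1 pair 21, 19 and 19. Members thus sat mostly among the cells lowest in Retnla-like and pan-macrophage genes, and were spread more evenly over the other lists.

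The members differed among themselves along H2-Aa, a split made after the data were seen. The 22 members without an H2-Aa UMI had Fxyd2 at 2589 CPM (1985 to 3319) and the 21 members with 5 or more at 458 CPM (244 to 784), a ratio of 5.65 (3.07 to 11.2). With 2 summed UMIs enough for a member it was 2.95 (1.95 to 4.57). The same split of non-members gave 1.38 (1.29 to 1.48) for Fxyd2. Aqp1 was at 1754 CPM (1264 to 2370) and 529 CPM (296 to 872) in those member groups, a ratio of 3.32 (1.80 to 6.44) against 1.55 (1.40 to 1.72) in non-members. The intervals of members and non-members were well apart for Fxyd2 and barely apart for Aqp1.

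Ccr2 ran the other way. The members with 5 or more H2-Aa UMIs held 14 of the members' 16 Ccr2 UMIs, at 494 CPM (270 to 828), while the 22 without H2-Aa had 0, at least 3.94-fold lower with 3 counts set for 0. Non-members with 5 or more H2-Aa UMIs had Ccr2 at 210 CPM (180 to 244). TdTomato was at 835 CPM (510 to 1290) in members without H2-Aa and 388 CPM (194 to 694) in those with 5 or more, and the ratio of 2.15 had an interval (0.984 to 4.98) that reaches 1, and was 1.08 with 2 summed UMIs. In non-members the same ratio was 1.40 (1.28 to 1.54). Retnla was low on both sides, at 167 and 176 CPM, and Sparc was at 585 and 599 CPM. The groups differed in median depth (1015 and 1263 UMIs) and in the median sum of the 6 genes (3 and 5), and the part of these in the contrast was not tested.

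**Figure D5:**
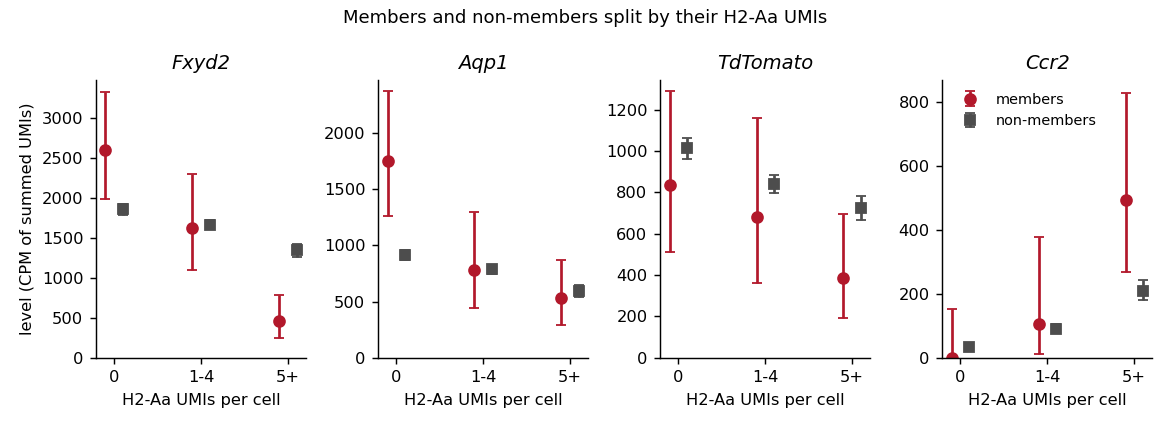
Level in CPM of summed UMIs (vertical axes) of Fxyd2, Aqp1, TdTomato and Ccr2 in members (circles) and non-members (squares) grouped by H2-Aa UMIs per cell (0, 1 to 4, 5 or more), with 95% intervals of counting error. In members Fxyd2 goes from 2589 to 458 CPM and Ccr2 from 0 to 494 CPM as H2-Aa goes from 0 to 5 or more UMIs.

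Single cells were also sorted by which of the 4 subset genes they held. Aqp1 was the only one of the 4 detected in 10 members (16.9%) and 7.08% of non-members, and H2-Aa the only one in 10 members (16.9%) and 8.37%. Retnla was the only one in 0 members, which allows a share of up to 5.08%, and in 2.74% of non-members. All 4 were found in 4 members and 3 members had none of them.

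The day 0 library was also clustered without the cell cycle lists, which gave 8 clusters. The MHC class II-high cluster held 23 members among 804 cells, 2.86% of it (1.82 to 4.26%), and the lining-like cluster 2 among 515, 0.388% (0.0471 to 1.40%). The osteoclast-like cluster held 0 of 129, which allows up to 2.33%. A cluster of 271 cells that took no name held 16 members, 5.90% of it (3.41 to 9.41%), with Aqp1 at 1693 CPM. Its first genes were Stmn1 and Ube2c, although the genes of the cell cycle lists had not been used to form it. Genes outside those lists, with 256 of the 324 higher calls, were not kept out of the clustering. The cluster is therefore not a separate recovery of dividing cells. No cluster took the Retnla-like name here. In the 6 other clusterings that had one, it held at most 4 members (of 501 cells) and, with scaled genes, 0 of 604. An unnamed cluster led by Vsig4 and Sparc held 9 of 672. The remaining 3 clusters, led by Cxcl2, Dcn and Ifitm1 and also unnamed, held 4, 2 and 3 members of 668, 331 and 325 cells. The share of the members in the MHC class II-high class ran from 11.9% to 49.2% over other clusterings against 39.0% here. The class's own share of all cells was 21.6% here, 5.87% where it held 11.9% of members and 33.1% where it held 49.2%. At resolution 0.5 it held 47.5% of members and 44.9% of all cells, so the members' share has to be read beside the class's size. The share in the lining-like class was 3.39% here and stayed at or under 10.7% except at the lowest resolution, where only 3 clusters formed and it was 52.5%. At that resolution the lining-like class held 51.8% of all cells, against 13.9% here.

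Retnla was lower in members inside the clusters too. In the MHC class II-high cluster it was at 191 CPM (70.1 to 416) in members against 1030 CPM in the other cells, and in the cluster of 271 cells at 0 of the members' UMIs, where 3 counts would be 178 CPM, against 482 CPM. In the Vsig4 and Sparc cluster it was at 392 CPM (107 to 1004) against 746 CPM, an interval that takes in the other cells' value. H2-Aa was at 980 CPM (470 to 1803) against 275 CPM in the Vsig4 and Sparc cluster, 5573 (4777 to 6462) against 4589 CPM in the MHC class II-high cluster, and 416 (167 to 856) against 732 CPM in the cluster of 271 cells. TdTomato was at 478 against 698, 416 against 622 and 980 against 1045 CPM in these 3 clusters, with overlapping intervals in each.

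The lowest genes in members included several secreted signals. Ccl8, a chemokine that draws monocytes, was found once in members (14.0 CPM) and in 27.6% of non-members (479 CPM), 34.3-fold lower (6.14 to 1354). With 2 summed UMIs enough for a member the ratio was 0.280 (0.163 to 0.450), a far smaller difference in the same direction. Ccl7, a related chemokine, was 4.92-fold lower (2.38 to 12.3) with 7 UMIs, and Cxcl13, which draws B cells, 11.5-fold lower (3.19 to 95.3) with 2 UMIs. Of the 4 monocyte-attracting chemokines measured these 2 Ccl genes were lower, beside 1.04% of all genes. Ccl2 was at 378 against 620 CPM (ratio 0.610, 0.401 to 0.889) and Ccl12 at 126 against 112 CPM. The 4 together were 2.75-fold lower (2.05 to 3.79).

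Most of the other low genes rested on a single UMI. G3bp2, an RNA-binding protein of stress granules, had 0 UMIs in members and 104 CPM in non-members, at least 2.48-fold lower with 3 counts set for 0 over the members. Fewer members or UMIs bring that limit to less than 2-fold, a ratio of 0.640 with at least 4 summed UMIs, 0.783 without Stmn1 and 0.994 after thinning. AI413582, Selenbp1, Ang (a secreted ribonuclease), Pnp, Trim47, Sult1a1 (a sulfotransferase), Ppp1r18 and Irf2bp2 had 1 UMI each in members, with values from 8.10-fold lower for AI413582 to 5.76-fold lower for Irf2bp2. The intervals of these 8 genes reach down to between 1.45-fold and 1.03-fold. With 2 summed UMIs, Pnp (0.463, 0.149 to 1.09), Trim47 (0.655) and Ppp1r18 (0.676) lost the call and the rest kept it. With at least 4 summed UMIs none of the 8 kept it. AI413582, Pnp, Sult1a1 and Irf2bp2 then had intervals that reach 1, and the rest had 0 UMIs with limits short of 2-fold. Pnp has a near-identical neighbouring copy that can share its reads. Ctsa, the lysosomal cathepsin A gene, had 8 UMIs (3.95-fold lower, 2.00 to 9.17), but its ratio was 0.592 (0.406 to 0.835) with 2 summed UMIs and 0.564 (0.226 to 1.17) after thinning, both short of 2-fold.

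Programmes of activation and metabolism differed less. Inflammatory mediators were at 2029 against 2051 CPM (ratio 0.989, 0.834 to 1.17), with 0 of 7 measured genes called. Immediate early genes, which respond to stimulation and to cell isolation, were at 4493 against 6274 CPM (ratio 0.716, 0.639 to 0.799), and Ier3 was the 1 lower gene of 12, against 1.04% of all genes. Growth factor receptors and ligands were at a ratio of 0.701 (0.551 to 0.880), with Igf1, an insulin-like growth factor, at 56.0 against 185 CPM as the 1 lower gene of 7, against 1.04% of all genes. Glycolysis genes were at 4703 against 3352 CPM (ratio 1.40, 1.26 to 1.56), with Pgk1 (2.73-fold) and Pkm (2.07-fold) higher of 11, against 5.64% of all genes. Genes of mitochondrial ATP synthesis were at a ratio of 1.09 (0.994 to 1.19) and genes of the lining's cell junctions at 0.945 (0.538 to 1.54), with 0 called in either.

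In the other libraries, taken 1, 2 and 5 days after transfer of arthritogenic K/BxN serum, the same limits were passed by 91, 56 and 156 cells. Those cells had a median of 7414 to 8276 UMIs, so shares are given with each cell thinned to 500 UMIs. Thinned in this way, 0.404% of day 0 cells passed (0.226 to 0.665%). The later shares were 0.625% (0.419 to 0.896%), 0.404% (0.202 to 0.722%) and 0.804% (0.526 to 1.18%) in that order, each with an interval overlapping that of day 0. Without thinning they were 1.59%, 1.96%, 2.06% and 4.82%. Pairs of libraries shared 13 to 53 barcodes, and 0 of the later cells that passed had a barcode of a day 0 member. Against the other cells of their own library, the cells that passed had Retnla at 0.187, 0.158, 0.0630 and 0.220 and TdTomato at 0.698, 0.531, 0.582 and 0.455 on days 0, 1, 2 and 5. Aqp1 was at 1.26, 0.781, 0.541 and 0.643, below 1 with its interval on each day after day 0, and Sparc at 0.675, 0.374, 0.430 and 0.197. The ratios of H2-Aa were 1.63, 2.68, 3.62 and 0.506. With 1 library a day, a day's effect and its library's cannot be told apart.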

How the data were processed

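Synovial cells were profiled with the 10x Chromium 3' v2 kit, per the labels' protocols. The authors deposited unnormalized UMI counts, one matrix of genes by barcodes for each day. The submitters' processing notes name the mm10 build, Cell Ranger 2.1.0, Seurat 2.3 and R 3.5.2 without their roles. Only genes detected in 5 or more barcodes are listed in a file; others have no value. The day 0 file held 7115082 UMIs in 7542 barcodes.

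The members and gene lists were chosen with earlier results of these data known. Ratios of summed UMIs carry exact conditional Poisson intervals, and a count of 0 was set to 3 counts. Named genes were the 15 highest and 15 lowest called genes with at least 50 CPM in 1 group, ranked by log2 of CPM with 5 added. Left out were the 6 genes of the rule, predicted and sex-linked genes, and genes of mitochondria, ribosomal proteins and haemoglobin. Some genes are not reported here. Thinning drew 500 UMIs per cell without replacement.

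Clustering (scanpy 1.11.5, leidenalg 0.10.2) used 2000 variable genes without the cell cycle lists, TdTomato and Cx3cr1, 30 components, 15 neighbours and resolution 1.0. An earlier version scaled the genes and was replaced, after its result was seen, by the unscaled design stated at the outset. A class name needed 3 raised markers (log2 ratio of at least 0.5) and 1 among the first 10 genes. That scoring, and limiting names to myeloid classes and fibroblasts, were set after the data were seen. Scrublet was run at 0.8% per 1000 cells. The ratio code was tested on simulated counts. Statistics ran in Python 3.11.15 with SciPy 1.17.1 and NumPy 2.4.6, and tables in pandas 2.3.3.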

Additional observations from a re-analysis of the deposited data

Results flagged for a closer look

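H2-Aa moved in opposite directions on 2 days. Cells passing the gene limits had 1.63 times the H2-Aa level of the other cells at day 0 and 0.506 times (0.486 to 0.527) at day 5. At days 1 and 2 the ratios were 2.68 and 3.62. With 1 library per day the difference between days was not tested, and the cells that passed had a median of 1095 UMIs at day 0 and 8205 at day 5.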

How the results depend on the processing

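No paired analysis was possible because each day has 1 library. A limit of 1000 genes left 2 members (2.08%), where 131 genes were higher and 12 lower. TdTomato was then at 0.243, Sparc at 1.25, Aqp1 at 0.663, H2-Aa at 2.94 and Sult1a1 at 3.09 of non-members. Sparc, Aqp1 and Sult1a1 thus changed direction on 2 cells, Aqp1 from a main ratio whose interval reaches 1. The members were 0.990% of cells at 200 genes. They numbered 105 (2.83%) at 2 summed UMIs, 34 (0.915%) at 4, 29 (0.781%) without Stmn1 and 15 (0.404%) after thinning. H2-Aa was then at 1.35 with 2 summed UMIs and 1.93 without Stmn1. Lower genes numbered 37 under 5% mitochondrial UMIs, 35 without Stmn1 and 30 after thinning to 500 UMIs, where TdTomato was at 0.502. Median-ratio scaling gave 287 higher and 73 lower genes. Per pan-macrophage UMI, an alternative added after seeing the data, TdTomato was at 1.03 and so changed direction, Sparc at 0.991, Aqp1 at 1.86 and H2-Aa at 2.40. Retnla lay between 0.118 and 0.275 under the 12 other settings tried, inside its interval. For the 29 other named genes, 280 of 296 values lay inside the main interval, 15 outside it in the same direction and 1 reversed, and 23 more gave no value because the members had 0 UMIs and 3 counts would have put them above non-members. The MHC class II-high share of members was 11.9% at resolution 2.0, 18.6% with 15 components and 22.0% with scaled genes, the first version run. That class then held 5.87%, 14.1% and 10.1% of all cells, against 21.6% in the main clustering. The lining-like share was 52.5% at resolution 0.5, where that class held 51.8% of all cells. Among members split by H2-Aa, Fxyd2 was 2.95-fold with 2 summed UMIs, and TdTomato 1.08-fold. With 2 summed UMIs the thinned shares at days 0 and 5 were 1.02% and 1.30%. Thinned to 1000 UMIs they were 1.41%, 1.03%, 0.882% and 1.82% at days 0, 1, 2 and 5, leaving out 1509 shallower cells at day 0, and unthinned 1.59%, 1.96%, 2.06% and 4.82%. The causes were not tested, apart from the smaller number of cells or UMIs that a limit or thinning leaves.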
